A study of Mus musculus with 39 samples.

Results

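Genes of the apolipoprotein L family, Apol6, Apol7c, Apol8, Apol9a, Apol9b, Apol10b and Apol11b, were followed in the kidney, liver, lung and skin of aging mice. They were taken by symbol from 24537 genes counted in kidney, liver and lung and from 52508 genes counted in skin, and all 7 had a row in both tables. A further 7 rows, the other Apol genes and the related Apold1, were read by their counts only. All animals were male Prf1-/- mice on the C57BL/6 background, which lack perforin, the pore-forming protein of cytotoxic lymphocytes, so every group, young and old, carries this deletion. Young mice were 3 months old and received no treatment (n = 4 per tissue, n = 3 in skin). Vehicle mice (n = 3) and ABT-737 mice (n = 3) were 20 months old. ABT-737, an inhibitor of the anti-apoptotic BCL-2 proteins, was injected at 25 mg/kg in 2 monthly rounds of 2 consecutive days, the earlier round at 18 months, and vehicle was injected alike. Because the young mice were not injected, age and injection cannot be told apart. The drug name of ABT-737 replicates 4 and 5 reads ABT-738 and ABT-739 in a sample label, whereas their titles and the study's methods give ABT-737. RNA was sequenced from the 3′ ends of transcripts, and reads were counted per gene in 39 libraries. These held 1431814 to 3513311 counts in kidney, 223957 to 891116 in liver, 1046508 to 2600092 in lung and 1493411 to 3842808 in skin. Levels below are CPM, a gene's counts scaled to a common library size, after TMM scaling within a tissue.

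Apolipoprotein L proteins are helical, membrane-associated proteins, and the best known of them, human APOL1, kills trypanosomes by forming channels in their membranes. Most of the family is intracellular, lies in a single gene cluster and has been duplicated repeatedly in rodents. Several members are induced by interferons, among them mouse Apol9a and Apol9b, which have antiviral activity, and the protein of human APOL6 can promote cell death. Apol7c is known from dendritic cells.

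The 7 genes lie together on chromosome 15 (mm10), with Apol6 at chr15:77045276-77057108 on the plus strand, Apol9a at chr15:77403789-77411034 on the minus strand, Apol10b at chr15:77584158-77596125 and Apol11b at chr15:77633951-77643286, both on the minus strand, and Apol9b at chr15:77729072-77736382 on the plus strand. Apol7c at chr15:77524867-77533315 and Apol8 at chr15:77748613-77755229 are on the minus strand. No member overlapped another gene of either table. In the RefSeq promoter table (GRCm38.p6), 6 of the 7 members had an entry, Apol6 being the exception. The 250 bases before the start were searched on both strands for TTTC, any 2 bases and TTTC again, the core of an interferon-stimulated response element, and 4 of the 6 held it, compared with 2.98% of 32851 promoters of the same length. These were Apol7c, Apol9a, Apol9b and Apol11b, and the letters were absent from this window of Apol8 and Apol10b. Of the 6 related genes outside the members with an entry, 3 also held it, so the match is not particular to the members. TTCNNNGAA, the core of a gamma-activated site, was found in Apol11b and in 7.02% of all promoters. The stretches that hold the match are shown for these members, and whether they bear on the levels given below was not tested. Apol9a and Apol9b have 2 starts each in that table, and the more upstream start was used. They are written 5′ to 3′ on the strand of the gene with the matches in capitals, overlapping matches being joined.
Apol9a: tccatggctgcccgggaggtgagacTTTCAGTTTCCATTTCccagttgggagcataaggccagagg
Apol9b: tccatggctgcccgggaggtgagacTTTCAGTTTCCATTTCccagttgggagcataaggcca
Apol7c: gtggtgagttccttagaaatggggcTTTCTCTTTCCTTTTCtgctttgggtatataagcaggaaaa
Apol11b: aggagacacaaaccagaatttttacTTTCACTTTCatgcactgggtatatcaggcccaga
The Apol9a stretch is at chr15:77411099-77411164, that of Apol9b at chr15:77729010-77729071, that of Apol7c at chr15:77533330-77533395 and that of Apol11b at chr15:77643302-77643361. Apol9a and Apol9b each held 2 overlapping matches, 59 to 44 bases before the start of Apol9a and 37 to 22 bases before that of Apol9b, and their windows shared an unbroken run of 228 bases. Apol11b held 1 match, 50 to 41 bases before its start, and all 250 bases of its window were also those of Apol11a, a gene outside the 7. A match is a stretch of letters and not a shown binding site.

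Duplication also bears on which gene a 3′ read is assigned to. The last 500 bases of the Apol9a and Apol9b transcripts were identical at 491 positions (98.2%), and 41.5% of the 50-base stretches in them were common to both genes. For Apol11b 21.3% of such stretches also occurred in Apol10a, Apol11a or Apol10b, and for Apol7c 8.20% occurred in Apol7a, whereas Apol6, Apol8 and Apol10b shared 0. The transcripts compared are those named in the skin table. Those of Apol8 (2697 bases) and Apol10b (2325 bases) are longer than the models counted in kidney, liver and lung (1832 and 1980 bases). For these genes the 0 refers in part to 3′ bases that were not counted in those tissues. The division of reads between Apol9a and Apol9b is therefore uncertain, and their sum was followed beside the separate genes. In the skin table the gene models reached about 2000 bases past the annotated end of the transcript, so that levels in skin were not compared with those of the other tissues.

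The 7 genes were chosen by family after results of these data were known, among them the low Apol9a values of ABT-737 kidneys relative to vehicle kidneys, and that difference is a description. The adjusted p-values given here (edgeR quasi-likelihood test, Benjamini-Hochberg over all genes tested, called at 0.05) place each gene within the whole table and are not independent evidence. Counts were too low for the expression filter in many places. Of the 7 members, 3 were tested in kidney (Apol9a, Apol9b and Apol11b), 2 in liver (Apol9a and Apol9b), 5 in lung (all but Apol7c and Apol8) and 2 in skin (Apol6 and Apol9a). The others are given as counts. A gene passed the filter by its counts in a few libraries, whatever their group. In kidney Apol9a and Apol9b, and in skin Apol9a, passed through the vehicle mice, the group where they were highest. Apol11b in kidney and Apol6, Apol10b and Apol11b in lung passed through old mice. Being tested there already depends on a high level in those mice, so members called out of those tested are a description only.

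Apol9a and Apol9b were lower in the kidney of ABT-737 mice than of vehicle mice, at levels close to those of young mice. Apol9a stood at 0.495, 1.03 and 2.08 CPM in the 3 ABT-737 kidneys, at 6.57, 6.84 and 21.6 in the 3 vehicle kidneys and at 0.293, 1.38, 1.65 and 2.14 in the 4 young kidneys. Apol9b stood at 1.98, 2.05 and 3.63 CPM with ABT-737, at 7.98, 14.4 and 34.9 with vehicle and at 0.585, 1.85, 2.48 and 3.43 in young mice. All vehicle kidneys were above all others for both genes, and the ABT-737 and young kidneys overlapped. Behind the ABT-737 values were few reads, 1 to 4 counts of Apol9a and 4 to 7 counts of Apol9b per library.

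Relative to vehicle kidneys, Apol9a fell in ABT-737 kidneys by 3.31 ± 0.65 on the log2 scale (SE, 9.91-fold, adjusted p = 0.0153) and Apol9b fell by 2.92 ± 0.57 (7.59-fold, adjusted p = 0.0153). By size they were the third and the seventh most lowered of the 11123 genes tested. These were 2 of the 3 members tested, and both passed the filter through the vehicle kidneys, so this share is a description only. Of all genes tested 1.35% were called and 1.21% were called lower, and 8.47% had ABT-737 values all below the vehicle values. Vehicle replicate 3 carried the highest level of both genes, and without it the differences were -2.44 (adjusted p = 0.0406) and -2.06 (adjusted p = 0.0397). Without ABT-737 replicate 3 the calls were lost (adjusted p = 0.0666 for Apol9a and 0.0663 for Apol9b), likewise without ABT-737 replicate 4 (0.0860 and 0.0830), and without ABT-737 replicate 5 the difference of Apol9a was -3.92. Whether fewer cells that express these genes or less RNA per cell underlies a difference cannot be told apart in bulk tissue.

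**Figure D1:**
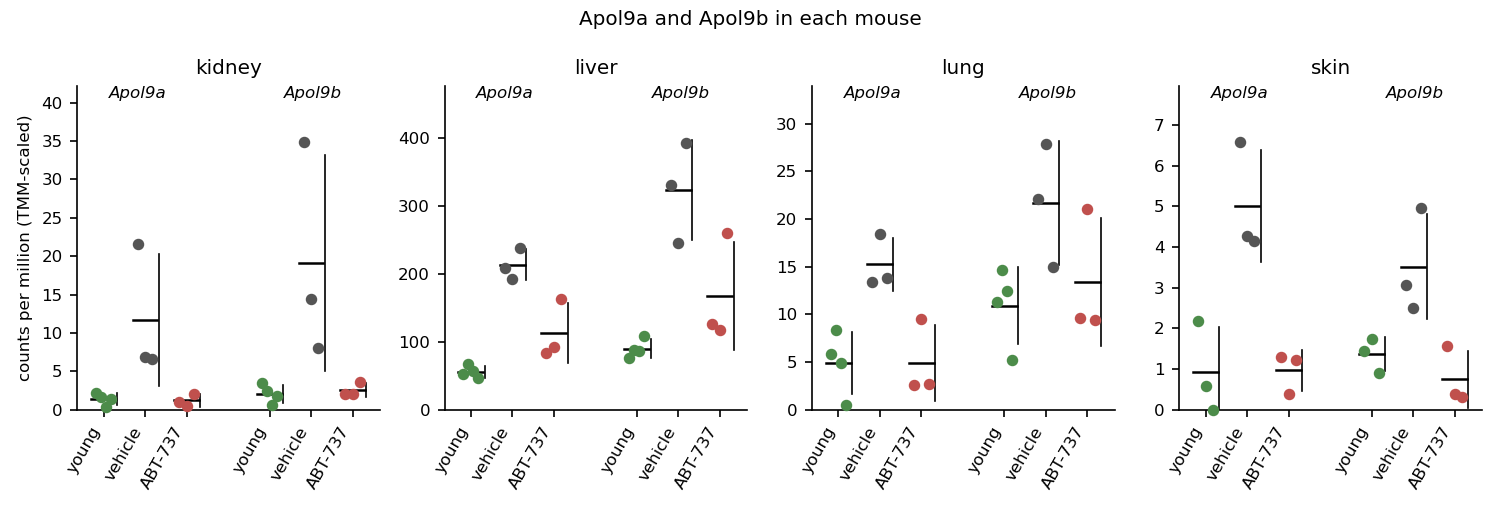
Level of Apol9a and Apol9b in each mouse (points, TMM-scaled CPM, linear axis from 0 with its own scale in each tissue) with the group mean (horizontal line) and SD (vertical line). In each of the 4 tissues every vehicle value of Apol9a lies above every young and every ABT-737 value, and the levels in liver reach 393 CPM.

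Between vehicle and young kidneys Apol9a rose by 3.18 ± 0.53 (SE, log2, adjusted p = 8.4e-04) and Apol9b by 3.26 ± 0.50 (adjusted p = 4.4e-04). With Apol11b, described below, all 3 members tested were called higher. Of all genes 7.75% were called higher and 14.8% did not overlap and were higher. The members passed the filter through old kidneys, so their share is a description only. Without vehicle replicate 3 the differences were 2.30 and 2.39, and both remained past the threshold. Between ABT-737 and young kidneys the difference was -0.13 (95% interval -1.96 to 1.70, adjusted p = 0.958) for Apol9a and 0.33 (-1.21 to 1.88, adjusted p = 0.863) for Apol9b. The 3 comparisons of a tissue share their mice, and their values are set side by side only.

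In liver Apol9a and Apol9b were higher in old than in young mice, and the ABT-737 values lay between the others. Apol9a stood at 46.0, 52.3, 56.8 and 67.1 CPM in young livers, at 193, 209 and 239 with vehicle and at 83.2, 92.9 and 163 with ABT-737, so that the 3 groups did not overlap. Apol9b stood at 75.5, 86.0, 87.9 and 109 CPM in young livers, at 246, 332 and 393 with vehicle and at 118, 127 and 260 with ABT-737, and ABT-737 replicate 5 exceeded the lowest vehicle liver. From young to vehicle livers Apol9a rose by 1.93 ± 0.25 (SE, log2, adjusted p = 7.8e-05) and Apol9b by 1.85 ± 0.28 (adjusted p = 2.8e-04), 2 of 2 members tested compared with 11.7% of all genes called higher and 16% higher without overlap. Because the division of reads between the pair is uncertain, these are not 2 separate results. The differences between ABT-737 and vehicle, -0.90 ± 0.26 for Apol9a (adjusted p = 0.0698) and -0.93 ± 0.30 for Apol9b (adjusted p = 0.101), were not called, while 3.85% of all genes were called, 2.85% were called lower and 9.67% were lower without overlap. Without ABT-737 replicate 5 both were called (-1.26, adjusted p = 0.0240, and -1.39, adjusted p = 0.0211), and without vehicle replicate 3 Apol9a was called (adjusted p = 0.0355). Relative to young mice Apol9a remained higher under ABT-737 by 1.03 ± 0.26 (adjusted p = 0.0245), which was lost without young replicate 1, 3 or 4 or ABT-737 replicate 5 (adjusted p = 0.0615, 0.0688, 0.0835 and 0.196). Apol9b differed by 0.91 ± 0.29 (adjusted p = 0.0622), and of all genes 3.13% were called higher.

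In lung Apol9a stood at 0.520, 4.88, 5.89 and 8.34 CPM in young mice, at 13.4, 13.8 and 18.4 with vehicle and at 2.58, 2.68 and 9.48 with ABT-737. The vehicle lungs lay above all others. Apol9b stood at 5.20, 11.3, 12.5 and 14.6 CPM in young mice, at 15, 22.1 and 27.9 with vehicle and at 9.40, 9.66 and 21.1 with ABT-737, and ABT-737 replicate 4 lay within the vehicle range. Neither gene was called in any comparison of the lung. The difference between ABT-737 and vehicle was -1.79 (95% interval -3.16 to -0.42, adjusted p = 0.201) for Apol9a and -0.75 (-1.68 to 0.18, adjusted p = 0.411) for Apol9b. None of the 5 members tested was called there, nor was any of the 11949 genes (0%), of which 6.63% were lower without overlap, as was Apol9a. Without ABT-737 replicate 4 the difference of Apol9a was -2.52 (adjusted p = 0.0493). Vehicle and young lungs differed by 1.66 (0.46 to 2.85, adjusted p = 0.0656) for Apol9a, which passed in 3 of 6 alternatives, DESeq2 (adjusted p = 0.0375), no filter beyond 1 count (0.0442) and the compared groups alone (0.0301), and in none of 7 that left out a library, and 1.0 (0.15 to 1.85, adjusted p = 0.110) for Apol9b.

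In skin Apol9a stood at 0, 0.575 and 2.17 CPM in young mice, at 4.14, 4.27 and 6.59 with vehicle and at 0.392, 1.22 and 1.3 with ABT-737. The vehicle skins, with 12 to 15 counts each, lay above the other skins, which had 0 to 5 counts. The differences were 2.59 ± 0.78 (SE, log2, adjusted p = 0.0604) between vehicle and young and -2.24 ± 0.66 (adjusted p = 0.476) between ABT-737 and vehicle, and neither was called. With DESeq2 the difference between vehicle and young was 2.62 (adjusted p = 0.0384). It rests on few young counts, and was 4.04 (adjusted p = 0.0793) without young replicate 1 and 1.87 (adjusted p = 0.143) without young replicate 3. Apol9b, too low for the filter, had 7, 7 and 18 counts with vehicle, 1, 1 and 6 with ABT-737 and 2, 2 and 3 in young skins. In skin 0% of all genes were called between ABT-737 and vehicle and 5.81% were lower without overlap, while between vehicle and young 5.84% were called higher and 19.5% were higher without overlap.

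**Figure D2:**
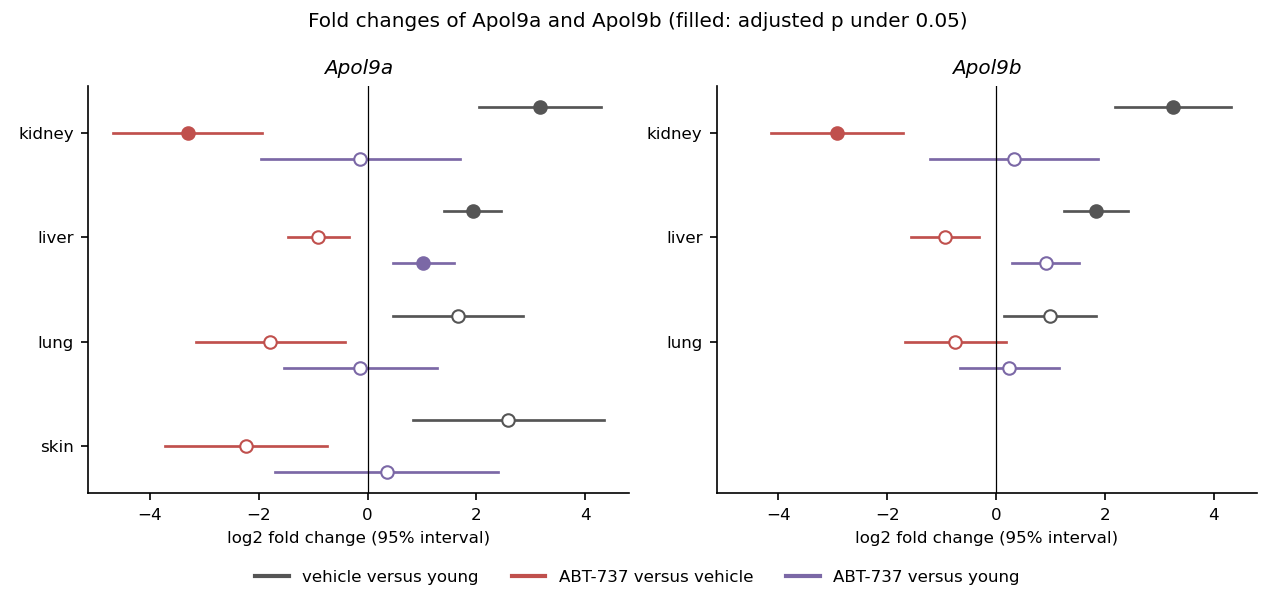
Log2 fold change of Apol9a (left) and Apol9b (right) with its 95% interval in each tissue where the gene was tested, for the 3 comparisons; filled points had an adjusted p under 0.05 in edgeR's quasi-likelihood test over all genes. The difference between ABT-737 and vehicle is filled in kidney only, at -3.31 and -2.92, and lies below 0 in every tissue shown.

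A call in kidney and none in another tissue does not show that the tissues differ, and the difference itself was tested in a fit of all 30 libraries of kidney, liver and lung. That fit treated the libraries as independent, although the same replicate number in different tissues may stand for the same mouse. The change under ABT-737 in kidney minus that in liver was -2.35 for Apol9a (log2, 95% interval -3.92 to -0.78, adjusted p = 0.413), and -1.94 for Apol9b (-3.30 to -0.59, adjusted p = 0.440). Between kidney and lung the difference was -1.43 (-3.25 to 0.39, adjusted p = 0.630) for Apol9a and -2.12 (-3.58 to -0.67, adjusted p = 0.378) for Apol9b, and between liver and lung it was 0.92 (adjusted p = 0.590) and -0.18 (adjusted p = 1.0). None of the members was called in these 3 tests, in which 0.0839%, 0% and 0.29% of the 13107 genes were called. For Apol11b, whose kidney and lung counts allowed the test, the difference was -0.90 (-2.63 to 0.83, adjusted p = 0.762).

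Levels differed between young tissues. On the scale of that joint fit, Apol9a stood at 62.0 to 92.9 CPM in young livers, at 0.420 to 6.66 in young lungs and at 0.262 to 1.92 in young kidneys, and Apol9b at 102 to 147, 4.20 to 11.7 and 0.525 to 3.07 CPM. For both genes the liver lay above the other tissues without overlap, whereas lung and kidney overlapped for Apol9a and not for Apol9b. Young kidney differed from young liver by -5.94 ± 0.48 (SE, log2, adjusted p = 1.2e-12) for Apol9a and by -6.02 ± 0.44 (adjusted p = 1.2e-13) for Apol9b. Young liver was above young lung by 4.31 ± 0.43 (adjusted p = 1.4e-10) and 3.82 ± 0.38 (adjusted p = 1.5e-10). Young kidney differed from young lung by -1.63 ± 0.59 (adjusted p = 0.0153) and -2.20 ± 0.49 (adjusted p = 1.9e-04). Apol10b, with 1 to 3 counts per young kidney and 2 to 7 per young lung, was the other member called between these tissues, at -1.74 ± 0.72 (adjusted p = 0.0367). The call of Apol9a between kidney and lung was lost without kidney young replicate 3 (adjusted p = 0.0676) or lung young replicate 2 (adjusted p = 0.0740). Such calls are common between tissues, since 41.2% of genes were called between young kidney and liver, 64.3% between kidney and lung and 62.2% between liver and lung.

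Summed over libraries, Apol9a took 39.1% of the 2360 counts assigned to the pair in kidney, liver and lung (exact binomial 95% interval 37.1 to 41.1%). By tissue the share was 38.0% of 266 counts in kidney (32.1 to 44.1%), 40.0% of 1670 in liver (37.6 to 42.4%) and 36.1% of 424 in lung (31.5 to 40.9%). In skin, where the gene models differ, it was 54.4% of 103 counts (44.3 to 64.2%). In lung the share was 25.3% with ABT-737 (16.0 to 36.7%), 42.0% with vehicle (35.7 to 48.6%) and 30.6% in young mice (22.2 to 40.1%), and every ABT-737 lung, at 21.1 to 31%, lay below every vehicle lung, at 37.7 to 48.1%. This difference in share was not tested, and in kidney and liver the groups overlapped. These intervals cover counting error only. With the pair summed into a single row, the difference between ABT-737 and vehicle was -3.06 in kidney (adjusted p = 0.00921) and -1.07 in lung (adjusted p = 0.272), the latter smaller than that of Apol9a alone by more than 1.5 times.

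**Figure D3:**
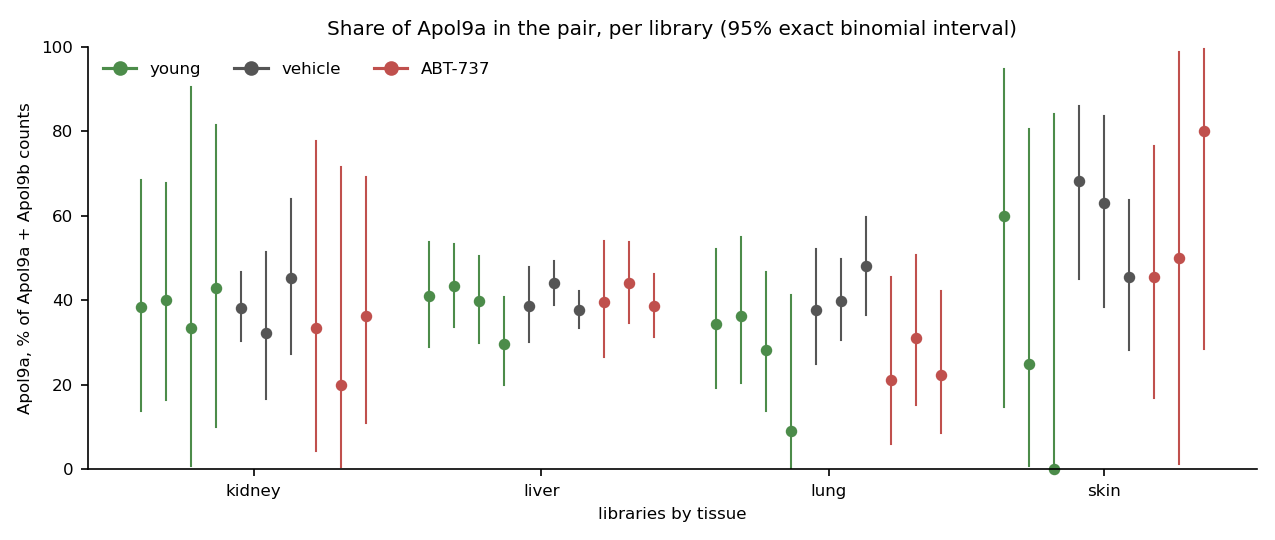
Share of Apol9a among the counts of Apol9a and Apol9b (percent, points) with its exact binomial 95% interval (lines) for each library, ordered by tissue and group. The liver libraries lie between 29.6 and 44.1%, and the interval is narrowest in vehicle liver replicate 5 (492 counts of the pair, 33.5 to 42.3%) and widest in ABT-737 skin replicate 4 (2 counts, 1.26 to 98.7%).

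Apol11b had almost no counts in young mice and was found in old mice of either treatment. In kidney it stood at 0, 0, 0.276 and 0.429 CPM in young mice, at 5.10, 7.52 and 10.3 with vehicle and at 2.05, 3.46 and 6.23 with ABT-737. All old kidneys lay above all young kidneys, and the vehicle and ABT-737 kidneys overlapped. The summed counts gave a ratio of 43.2 between vehicle and young (46 against 2 counts, 95% counting interval 11.3 to 368, adjusted p of the fit = 7.4e-05). Between ABT-737 and young the ratio was 22.5 (23 against 2 counts, 5.57 to 197, adjusted p = 0.00747), and it was the single member called of the 3 tested, compared with 1.38% of all genes called higher. When the compared groups were fitted alone, Apol11b no longer passed the filter and was not tested. In kidney Apol11b differed between ABT-737 and vehicle by -0.94 (95% interval -1.88 to -0.01, adjusted p = 0.333).

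In lung Apol11b had no count in the 4 young mice. It stood at 6.86, 10.7 and 10.8 CPM with vehicle and at 0, 9.66 and 15.2 with ABT-737, ABT-737 replicate 4 being the lung without a count, in the shallowest lung library, where a count of 0 allows up to 3.16 CPM. Against a floor of 3 counts over the young group, vehicle lungs were at least 22.7-fold higher (adjusted p = 0.00665) and ABT-737 lungs at least 25.0-fold higher (adjusted p = 0.0328). The latter was the only member of 5 called between ABT-737 and young lungs, where 2.15% of genes were called higher, and no member was called there without ABT-737 replicate 5 or any of the 4 young lungs. In lung the difference between ABT-737 and vehicle was -0.06 (95% interval -1.59 to 1.47, adjusted p = 0.977). In skin Apol11b was too low for the filter, with 0 counts in young mice, 2, 14 and 77 with vehicle and 0, 1 and 3 with ABT-737. Vehicle skins together were 18.9-fold above the young floor, and 77 of their 93 counts came from replicate 4. In liver it had 0, 4 and 4 counts with vehicle, 0, 0 and 1 with ABT-737 and 0 in young mice. Vehicle was 3.38-fold above the young floor.

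Apol10b passed the filter in lung only, where it stood at 1.04, 1.39, 3.43 and 3.80 CPM in young mice, at 3.43, 17.2 and 24.8 with vehicle and at 3.16, 5.15 and 9.84 with ABT-737. Vehicle replicate 4 lay within the young range and the other vehicle lungs above it. From young to vehicle lungs Apol10b rose by 2.56 ± 0.64 (SE, log2, adjusted p = 0.0185). With Apol6 and Apol11b it was among 3 of 5 members called higher in that comparison, against 8.15% of all genes called higher and 15.1% higher without overlap, Apol10b itself overlapping. The call was lost without vehicle replicate 3 or 5 (adjusted p = 0.0750 and 0.0805) or young replicate 2 or 4 (0.0563 and 0.0623). The difference between ABT-737 and vehicle was -1.19 (95% interval -2.55 to 0.16, adjusted p = 0.372), and between ABT-737 and young 1.37 (-0.12 to 2.85, adjusted p = 0.285). In kidney Apol10b had 2, 3 and 5 counts with vehicle, 0, 0 and 1 with ABT-737 and 1 to 3 in young mice, a ratio of 9.60 between vehicle and ABT-737 (95% counting interval 1.37 to 417). In liver it was counted in the vehicle mice alone, with 1, 2 and 3 counts, together 1.27-fold above the ABT-737 floor. In skin it had 2, 3 and 7 counts with vehicle, 0, 0 and 4 with ABT-737 and 1, 2 and 2 in young mice.

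Apol6, whose human counterpart can promote cell death, was tested in lung and skin. In lung it stood at 0, 0.980, 1.09 and 1.39 CPM in young mice, at 9.86, 10.7 and 40.0 with vehicle and at 0, 13.0 and 26.3 with ABT-737. All vehicle lungs lay above all young lungs, and the ABT-737 lungs spanned both ranges. Between vehicle and young lungs Apol6 rose by 4.52 ± 1.0 (SE, log2, adjusted p = 0.0112). Vehicle replicate 5 held 107 of the 146 vehicle counts, and without it the rise was 3.52 (adjusted p = 0.0800). The difference between ABT-737 and vehicle was -0.73 (95% interval -2.47 to 1.01, adjusted p = 0.687) and turned to 0.27 without vehicle replicate 5. Between ABT-737 and young lungs it was 3.79 (1.5 to 6.07, adjusted p = 0.0702), and without ABT-737 replicate 3, the lung with 0 counts and a limit of 1.93 CPM, it was 4.40 (adjusted p = 0.0162).

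In skin Apol6 stood at 17.8, 24.1 and 27.5 CPM in young mice, at 10.2, 19.3 and 20.6 with vehicle and at 10.2, 14.0 and 57.6 with ABT-737, and no comparison was called. The difference between vehicle and young was -0.47 (95% interval -1.84 to 0.89, adjusted p = 0.615). ABT-737 and vehicle skins differed by 0.73 (-0.60 to 2.06, adjusted p = 0.798) and it turned to -0.45 without ABT-737 replicate 3, which held 222 of the 294 ABT-737 counts. In kidney Apol6 had 0, 4 and 7 counts with vehicle, 0, 2 and 3 with ABT-737 and 1, 3, 3 and 3 in young mice. In liver it had 2 counts in all, in a single vehicle mouse.

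**Figure D4:**
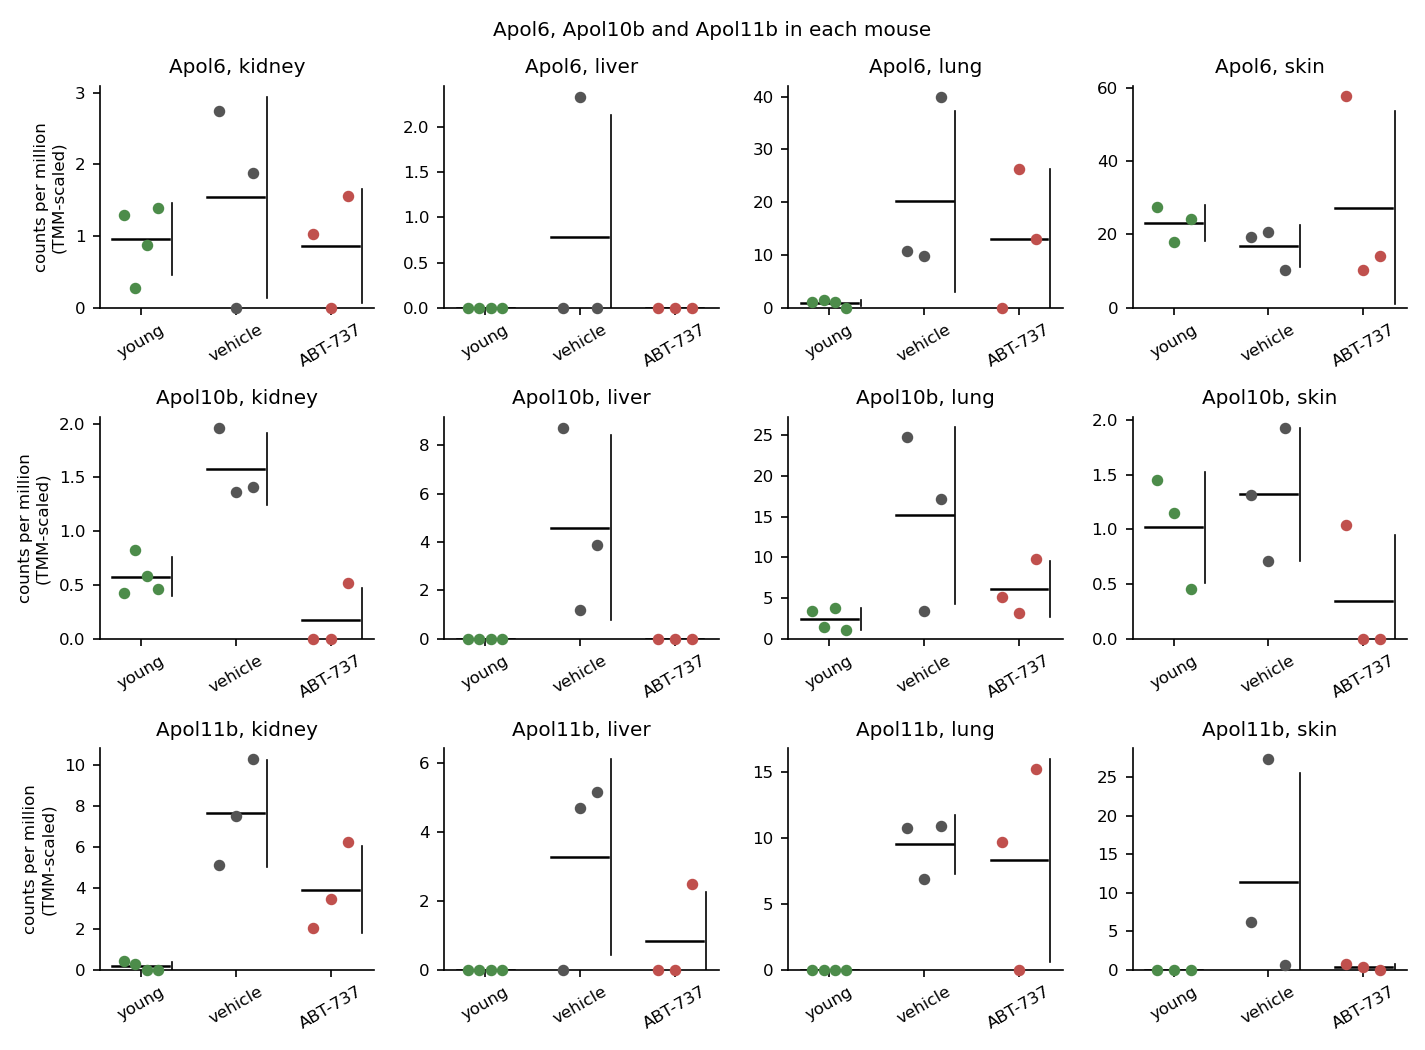
Level of Apol6, Apol10b and Apol11b (rows) in each mouse of the 4 tissues (columns), as TMM-scaled CPM on linear axes from 0 that differ between panels, with the group mean (horizontal line) and SD (vertical line). Apol11b is at 0 in every young liver, lung and skin, and the highest Apol6 value in skin is that of an ABT-737 mouse at 57.6 CPM.

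Apol7c, known from dendritic cells, passed the filter in no tissue. Its counts came almost wholly from lung, with 1, 3 and 10 counts with vehicle, 0, 0 and 4 with ABT-737 and 0, 0, 0 and 1 in young mice, a ratio of 15.6 between vehicle and young (95% counting interval 2.38 to 660). It had 1 count in kidney, 2 in skin and none in liver. Apol8 had counts in skin only, with 1, 2 and 15 counts with vehicle, 0, 1 and 2 with ABT-737 and 0, 1 and 2 in young mice. Its model in kidney, liver and lung, 1832 bases long, stops at chr15:77748613 on the minus strand. The skin model is built on a longer transcript of 2697 bases and runs on in the 3′ direction to chr15:77745799. Whether the shorter model missed 3′ reads of Apol8 in the other tissues was not tested. Vehicle and young skins differed by a ratio of 3.66 (1.07 to 19.4) that rested on the 15 counts of vehicle replicate 5. A floor of 3 counts stood for 0.827 to 2.05 CPM in a kidney library, 3.51 to 13.1 in liver, 1.12 to 3.16 in lung and 0.778 to 2.17 in skin, so that low levels of these genes in liver were not detectable at this depth.

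Interferon-stimulated genes were read beside the family from a list of 31 antiviral genes, which held none of the 7 members. In kidney all 24 tested genes of the list were lower with ABT-737 than with vehicle, and 13 were called lower, against 1.21% of all genes. The median log2 difference was -1.54 against 0.01 over all genes tested. Irf7, the transcription factor that amplifies the interferon response, fell by 2.23 ± 0.27 (SE, adjusted p = 5.0e-04) and Bst2, the membrane protein tetherin that holds back budding virus, fell by 2.21 ± 0.27 (adjusted p = 5.0e-04). Between vehicle and young kidneys 21 of 24 were called higher, against 7.75% of all genes (median 1.53, all genes 0.01). Between ABT-737 and young 0 were called (median 0.17). In liver all 12 tested were lower with ABT-737 than with vehicle, and 5 were called lower, against 2.85% of all genes (median -1.79, all genes -0.03). Irf7 was among the 5, by 1.84 ± 0.35 (adjusted p = 0.00619). Bst2 (-0.53, adjusted p = 0.392, groups overlapping), Stat2 (-0.76, adjusted p = 0.119) and Irf9 (-0.11, adjusted p = 0.917) were not called. Between vehicle and young 10 of 12 were called higher, against 11.7% of all genes (median 1.67). In lung 0 of 30 were called between ABT-737 and vehicle, as were 0% of all genes (median -0.75, all genes 0.04). Of the 30, 27 were lower and 3 higher, and 9 were lower without overlap, against 6.63% of all genes. Between vehicle and young 19 were called higher, against 8.15% of all genes (median 1.69). In skin 0 of 20 were called between ABT-737 and vehicle, as were 0% of all genes (median -1.60, all genes 0.04). All 20 were lower, 12 of them without overlap, against 5.81% of all genes. Between vehicle and young 11 were called higher, against 5.84% of all genes (median 2.35).

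The summed level of the 31 genes ranged from 386 to 594 CPM in ABT-737 kidneys, from 1107 to 1653 in vehicle kidneys and from 360 to 434 in young kidneys, and it was 1034, 2133 and 2411 in ABT-737 lungs against 2431 to 2570 in vehicle lungs and 1006 to 1115 in young lungs. Its part in the levels of Apol9a and Apol9b was not tested. ABT-737 replicate 3, the lung with the lowest sum of its group, had 0 counts of Apol6 and 9.66 CPM of Apol11b, whereas replicate 4, with the highest sum, had 26.3 CPM of Apol6 and 0 counts of Apol11b. Among the ABT-737 mice the library with the highest summed CPM of Apol9a and Apol9b also had the highest list sum in each tissue, whereas in kidney the vehicle mouse with the highest Apol9 sum, replicate 3, stood below replicate 4 in list sum (1529 against 1653 CPM). Of 13 interferon, receptor and signalling genes, 2 of 11 tested in kidney and 1 of 8 in liver were called lower between ABT-737 and vehicle. Over all genes 1.21% in kidney and 2.85% in liver were called lower. In lung 0 of 12 and in skin 0 of 11 were called, where 0% of all genes were called. Ifnb1, which encodes interferon beta, had no count in any library.

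**Figure D5:**
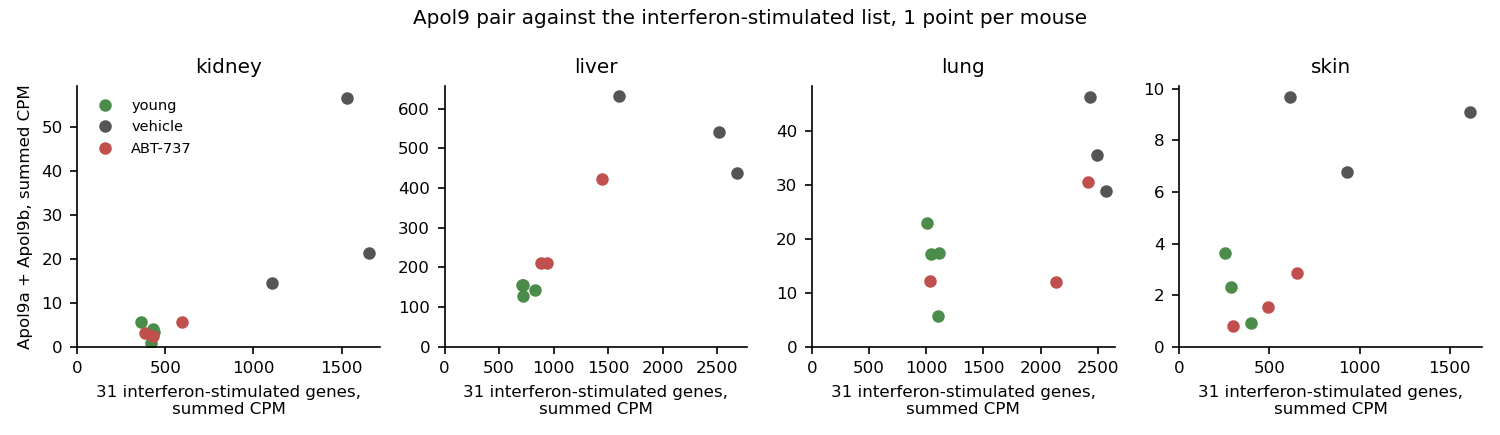
Summed level of Apol9a and Apol9b (vertical axis, CPM) against the summed level of 31 interferon-stimulated genes (horizontal axis, CPM) in each mouse (points, coloured by group), with axes from 0 that differ between tissues. In kidney the ABT-737 and young mice lie together, at list sums of 360 to 594 CPM, apart from the vehicle mice at 1107 to 1653, whereas 2 ABT-737 lungs lie at list sums above 2000.

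Summed levels of the T cell, macrophage and dendritic cell lists were lower with ABT-737 than with vehicle, without overlap, in kidney and liver. The B cell and plasma cell sums of the 2 groups overlapped in kidney, liver, lung and skin. In kidney the T cell list summed to 17.3 to 44.1 CPM with ABT-737, 97.8 to 146 with vehicle and 17.6 to 19.7 in young mice, and the macrophage list to 333 to 560, 802 to 1357 and 223 to 302. Between ABT-737 and vehicle kidneys 4 of 7 T cell genes and 4 of 8 macrophage genes tested were called lower, against 1.21% of all genes. Called lower were 0 of 3 B cell and plasma cell genes and 0 of 2 dendritic cell genes. The differences of all tested genes of these lists were below 0. In liver the T cell list summed to 3.96 to 24.8, 100 to 164 and 2.98 to 16.9 CPM, and the macrophage list to 241 to 495, 1658 to 1864 and 319 to 443. In lung the T cell sums were 219 to 549 with ABT-737, 716 to 2959 with vehicle and 155 to 201 in young mice, the highest being vehicle replicate 5, the mouse with the most Apol6. B cell and plasma cell sums in kidney were 50.3, 30.2 and 42.1 CPM with ABT-737 and 29.1, 151 and 28.2 with vehicle. The macrophage sums in lung were 1509 to 4008, 3315 to 6798 and 1169 to 1503 CPM. In skin the macrophage sums were 608 to 1310, 1541 to 3714 and 229 to 728, and the T cell sums of 124 to 191 with ABT-737 overlapped those of 157 to 436 with vehicle. Dendritic cell genes summed to 211 to 283 CPM with ABT-737, 271 to 468 with vehicle and 214 to 274 in young lungs. In kidney these sums were 11.9 to 29.8 with ABT-737, 34.7 to 54.7 with vehicle and 17.2 to 19.4 in young mice. In liver they were 3.96 to 12.4, 39.3 to 57.4 and 6.14 to 19.2. B cell and plasma cell genes summed to 149 to 816, 603 to 1013 and 116 to 177 CPM in lung, and Pax5, a defining B cell factor, was at 0 in the kidney. The part of these cells in the levels of the Apol genes was not tested.

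Markers of the labelled tissues were high in their own tissue. Kidney tubule genes summed to 10416 CPM or more in every kidney, alveolar and airway genes to 28049 to 60659 in lung, hepatocyte genes to 57950 to 88430 in liver and keratinocyte genes to 10060 to 34931 in skin, with no list gene at 0. None of the 6 hepatocyte genes was called in liver between ABT-737 and vehicle or between vehicle and young. Of the 6 kidney tubule genes in kidney, 1 was called higher between ABT-737 and vehicle (differences of -0.22 to 0.74). Between vehicle and young 1 was called higher and 1 lower (-0.84 to 0.56). Lung ABT-737 replicate 4, the lung with the highest Apol9a of its group, also had hepatocyte genes summing to 821 CPM, compared with 2.99 to 261 in the other lungs, and this was not tested as a source of its Apol9a, a gene of high level in liver.

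The genes whose log2 CPM most resembled that of Apol9a and Apol9b were sought among all other genes that passed the filter. Over the 10 kidney libraries, the highest Pearson r for Apol9a was with Xdh, which encodes xanthine dehydrogenase (r = 0.97), H2-DMb1, a chaperone of antigen loading on class II molecules (0.96), and Gbp9, an interferon-induced guanylate-binding protein (0.94). For Apol9b in kidney they were Xdh (0.97), H2-DMa (0.96) and Naaa (0.95). In liver they were Pou2f2, Ifitm2 and Cenpb for Apol9a (0.97, 0.96 and 0.96) and Ifitm2, H2-Q9 and H2-Q7 for Apol9b (0.95, 0.94 and 0.94). In lung Gcdh and Eefsec led for both genes (0.93 and 0.93 for Apol9a, 0.89 and 0.86 for Apol9b), followed by Phgdh for Apol9a (0.89) and Phf11d for Apol9b (0.85), and in skin Gucy1b3, Plekhm1 and Fkbp1b led for Apol9a over 9 libraries (each 0.93 or 0.94). In lung Oxsm, Pdia6 and Gtf2f2 were most like Apol10b (0.98, 0.97 and 0.96) and Irak4, Top2a and Snap29 most like Apol11b (0.96, 0.95 and 0.95), and in skin Aldh1a1, Ube2b and Sdhaf2 were most like Apol6 (0.95, 0.95 and 0.94). Each is among the highest of 5581 to 14222 correlations over libraries that fall into 3 groups and share their depth, and is a description only.

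Within the family, Apol9a and Apol9b were most alike, with r = 0.98 in kidney, 0.96 in liver and 0.94 in lung. Apol11b was less like Apol9a, with r = 0.61 in kidney and 0.24 in lung, and its closest member in lung was Apol10b (0.78). Apol6 and Apol9a had r = 0.66 in lung and -0.06 in skin.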

How the data were processed

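The authors made bulk MARS-seq libraries, which read transcript 3′ ends, and deposited raw counts per gene with no normalization. The submitters' processing notes name bcl2fastq, HISAT 0.1.5, HOMER and mm10. Collapsing of reads by molecule barcode and strand use are not given in the sources used here. Binomial and counting intervals treat each count as a separate molecule and leave out the spread between mice. Intervals of log2 differences come from the fit and include that spread. Groups came from sample titles, ages and treatment labels. The members, lists and tests were chosen with earlier results of these data known, and the values that chose the members were not recorded.

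In R 4.3.3, edgeR 4.0.16 fitted the 3 groups of a tissue together (filterByExpr, TMM, glmQLFTest, Benjamini-Hochberg over all genes tested, called under 0.05). A fit of 30 libraries in 9 groups tested differences between tissues. The skin table was fitted apart. Biological variation between mice (BCV) was lowest in the kidney fit (16.5%), followed by liver (23.5%), lung (31.7%) and skin (34.9%). SE is the log2 fold change over the square root of F. A group with no count was set to 3 counts. The fit was tested on simulated data. SciPy 1.17.1 gave exact binomial intervals and Biopython 1.88 the alignments.

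Genes named are the 7 members, at most 4 of a list (highest mean CPM) and the 3 genes most correlated with a member. Alternatives were DESeq2 1.42.0, its size factors, no filter beyond 1 count, at least 10 counts summed, summing Apol9a and Apol9b, fitting the compared groups only, a replicate block and each library left out. Deviations of same-numbered vehicle and ABT-737 mice had r = 0.18, 0.30 and 0.43 in lung, where mice of unlike number ranged from -0.57 to 0.30. They were -0.18, -0.21 and 0.02 in kidney, -0.04, 0.16 and -0.02 in liver and -0.57, -0.58 and 0.28 in skin. Numbers were not taken as pairs in the main fits, and the block was an alternative only.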

Additional observations from a re-analysis of the deposited data

How the results depend on the processing

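Of 887 values recomputed under other settings, 802 kept their direction and side of the threshold (counts within 1.5 times). With the replicate block, 2 members were called between ABT-737 and vehicle in kidney and 0 in liver, lung and skin, and the block changed no call there. Between young liver and lung the block gave 3 members in place of 2. The call of Apol9a and Apol9b in kidney passed in all 7 alternatives other than a library left out. Counts of members called between ABT-737 and vehicle were 1 in kidney with Apol9a and Apol9b summed, and over single libraries left out ranged from 0 to 2 in kidney, 0 to 2 in liver and 0 to 1 in lung. Between ABT-737 and young they were 0 in kidney and lung and 2 in liver with the compared groups only. In kidney no member passed the filter in that fit, so none was tested. They were 2 in liver and lung with no filter beyond 1 count, and without single libraries ranged from 0 to 1 in liver and 0 to 2 in lung. Between vehicle and young they were 1 in liver with the pair summed, 1 in skin with the pair summed, DESeq2 or no filter, and ranged from 1 to 3 in lung and 0 to 1 in skin without single libraries. Summing gave 1 for young kidney versus liver and 1 for young liver versus lung, and single libraries gave 1 to 3 for young kidney versus lung. Apart from the filter in kidney and summing, which itself leaves 1 row of 2, the causes were not tested.

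Log2 differences that turned sign were all uncalled. With the pair summed, that between ABT-737 and young became 0.16 in kidney, 0.16 in lung and -0.25 in skin (from Apol9a), and liver minus lung became 0.15 (from Apol9b), which also became 0.0052 with no filter. Without single libraries, Apol9a between ABT-737 and young ranged from -0.76 to 0.23 in kidney, -0.86 to 0.21 in lung and -0.39 to 1.80 in skin, Apol9b from -0.032 to 0.63 in kidney and -0.19 to 0.46 in lung, and Apol6 from -0.92 to 0.64 in skin. Between ABT-737 and vehicle, Apol11b ranged from -0.80 to 0.40 and Apol6 from -1.57 to 0.27 in lung, and Apol6 from -0.45 to 1.11 in skin. Liver minus lung of Apol9b ranged from -0.67 to 0.40. Depth limits liver most, where 3 counts equal up to 13.1 CPM, and the ABT-737 kidneys, which hold 7 counts of Apol9a and 15 of Apol9b in all.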

Other observations

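Of the Apol genes outside the 7 members, Apol7a, which shares part of its 3′ end with Apol7c, was the one with counts in every liver, 7 to 61 per library and 352 in all, while kidney had 1 count, lung 25 and skin 96. Apol7b had 15 counts and Apol7e 7 in lung and 0 in the other 3 tissues, Apol7d had 2 in lung and 2 in skin, and Apol10a had 1 in lung. Apol11a, whose promoter window is that of Apol11b, had 0 counts in kidney, liver and lung and 5 in skin. Apold1, a related gene on chromosome 6, had 66 counts in skin, 22 in kidney, 20 in lung and 3 in liver. Of the 5 further Apol genes with a promoter entry and Apold1, 3 held the response element core in the 250 bases before the start, namely Apol7e, Apol10a and Apol11a.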
